A study of Mus musculus with 18 samples.

Results

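Transcripts of 10 genes of the spindle and chromosomal passenger machinery were followed in single mouse oocytes: the Aurora kinases Aurka, Aurkb and Aurkc, the passenger subunits Incenp, Birc5 and Cdca8, the spindle pole factors Tpx2, Tacc3 and Ckap5, and the Polo kinase Plk1. The genes were taken from a list of symbols and matched to Ensembl identifiers. All 10 were found among the 47069 genes of each table, and all 10 were among the 12037 genes that passed a filter on low counts.

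The spindle of a mouse oocyte forms without centrioles. Aurora A, activated by Tpx2, acts at the acentriolar spindle poles, where it phosphorylates Tacc3, which recruits Ckap5 (chTOG, a microtubule polymerase), and where the Polo kinase Plk1 also acts. Aurora B and its germ cell relative Aurora C are the kinases of the chromosomal passenger complex, in which Incenp is the scaffold and the activator of the kinase and survivin (Birc5) and borealin (Cdca8) bring it to chromosomes. A full-grown oocyte at the germinal vesicle (GV) stage transcribes little, so maturation to metaphase II (MII) runs on stored messages, some of which are degraded and some of which gain a longer poly(A) tail and are translated.

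The oocytes were wild type and of the strain C57BL/6, and each of 6 groups held 3 oocytes. The groups were MII oocytes matured in vitro with MSC co-culture from 12-month-old mice (MSC-IVM-MII 12m), MII oocytes matured in vitro without MSC from mice of that age (IVM-MII 12m), GV oocytes of that age (GV 12m), and the 3 counterparts from 6-week-old mice (MSC-IVM-MII 6wk, IVM-MII 6wk and GV 6wk). The labels do not spell out MSC, and the series' design text gives the co-culture as overnight. The labels name no animal and no culture for an oocyte, so a group counted as 1 sample: no test, p-value or standard error was derived, and SD describes the spread over 3 cells, which may come from 1 mouse. SMART-seq2, which copies polyadenylated RNA, was run on the lysate of each oocyte after the nucleus had been pelleted. Levels are given as counts scaled to a common library size (CPM, scaled between libraries by TMM), values per length as TPM (the deposited length-scaled shares), and differences as the difference of group means of log2(CPM + 1). CPM is a share of a library and not an amount of RNA per oocyte, and a longer poly(A) tail and more RNA cannot be told apart in it. A gene was counted as at least 2-fold higher or lower where that difference reached 1 or -1. Overlap of oocytes between groups was judged on CPM, unless TPM is named.

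The ends of these messages are shown because signals near the poly(A) site take part in tail lengthening during maturation. The last 100 bases of 1 transcript per gene (GENCODE M21, GRCm38) were searched on the sense strand for a cytoplasmic polyadenylation element (CPE, here TTTTAT or TTTTAAT) and for the cleavage hexamer (AATAAA or ATTAAA). Capitals mark these letters in stretches of 30 bases, written 5′ to 3′ with U as T.
Aurka: ttaaaggctattTTTTATgttggagttctg
Aurkb: agaacaacaTTTTATAATAAAgtcttaaat
Aurkc: ctcTTTTATgaagtgatgttaATTAAAact
Tpx2: gagatttcttgaTTTTATatatttggtttt
Cdca8: cttgctgttttcAATAAAtcttagtttgcc
Birc5: acggggtaacggAATAAAatcacttgaaaa
These stretches lie in 3′ UTRs, at chr2:172356237-172356266 (reverse strand) for Aurka, chr11:69051619-69051648 (forward) for Aurkb, chr7:7003045-7003074 (forward) for Aurkc, chr2:152894608-152894637 (forward) for Tpx2, chr4:124918478-124918507 (reverse) for Cdca8 and chr11:117855698-117855727 (forward) for Birc5. CPE letters were present in Aurka, Aurkb, Aurkc, Tpx2 and Ckap5, that is in 5 of 10 genes, against 15.4% of 21287 coding transcripts with a window of the same length. In Aurkb the CPE and the hexamer adjoin, and in Aurkc the CPE lies upstream of the hexamer. The hexamer was present in 7 of 10 genes, all but Aurka, Tpx2 and Tacc3, against 68.6% of the transcripts. Birc5, Cdca8, Incenp and Plk1 had the hexamer and no CPE letters in this window, and Tacc3 had neither. These are matches of letters in 1 annotated transcript per gene. Which 3′ end each oocyte used was not measured.

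The libraries held 1914072 to 9193559 counts, with 8612 to 16036 genes detected. Their TMM factors ran from 0.713 in GV 12m oocyte 1 to 1.43 in GV 12m oocyte 3. The spread of CPM within GV 12m thus depends in part on this scaling. Oocyte markers were present in all 18 libraries, with 9 to 11 of 11 markers detected and summed levels of 8092 to 54961 CPM. Of the 6 MII oocytes from 6-week-old mice, 2 differed from the other MII oocytes in several maternal transcripts, of which Mos and Gdf9 were picked after their values were seen: oocyte 1 of IVM-MII 6wk and oocyte 1 of MSC-IVM-MII 6wk, the only MII oocytes whose titles begin with Y01. Mos, the kinase that starts the oocyte MAPK cascade, was at 1261 and 643 CPM in these libraries labelled MII, against 0 to 12.0 CPM in the other MII oocytes and 546 to 1973 CPM in GV oocytes. Gdf9, which encodes a growth factor of the oocyte, was at 17374 and 12657 CPM in them, against 572 to 3397 CPM in the other MII oocytes, 12077 to 18966 CPM in 5 GV oocytes and 1562 CPM in GV 12m oocyte 3. Other oocyte markers did not all place them alike, and Zp3 and Figla did not set them among GV oocytes. Zp3, a zona pellucida gene, was at 115 and 473 CPM in them, against 25.7 to 207 CPM in the other MII oocytes and 2067 to 20778 CPM in GV oocytes. Figla, a transcription factor of the oocyte, was at 0.225 and 2.75 CPM in them, against 0 to 3.82 CPM in the other MII oocytes and 31.2 to 288 CPM in GV oocytes. Zp2 was at 133.17 and 162.05 CPM in them, between the other MII oocytes (at most 74.31 CPM) and GV oocytes (at least 263.75 CPM). Zp1 was at 52.95 CPM in IVM-MII 6wk oocyte 1, inside the range of the other MII oocytes, which reached 108.09 CPM. In MSC-IVM-MII 6wk oocyte 1 Zp1 was at 700.8 CPM, inside the GV range of 579.9 to 2298.3 CPM. In GV 12m oocyte 3, 16 of 19 cumulus and granulosa cell markers were detected with a summed level of 2130.2 CPM, against 73.7 to 259 CPM in the remaining 5 GV oocytes and 0 to 80.5 CPM in MII oocytes. This library also held Mki67 at 62.4 CPM and Top2a at 104.2 CPM, against at most 36.3 and 49.4 CPM elsewhere. Summed mesenchymal stromal markers reached at most 28.1 CPM, with Thy1, Eng and Nt5e at 0 in every library, and summed blood and immune markers at most 20.8 CPM, with Ptprc at 0. Title prefixes were not shared between the ages, so age and prefix cannot be told apart.

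Between MII and GV oocytes the members stood on both sides of 0. In IVM-MII 6wk oocytes against GV 6wk oocytes, 3 of 10 genes were at least 2-fold lower (Birc5, Aurkb and Plk1), where 39.3% of all 12037 genes were, and 3 were at least 2-fold higher (Tpx2, Aurkc and Cdca8), where 16.7% were. In IVM-MII 12m against GV 12m oocytes, 1 gene was 2-fold lower (Aurkb; 39% of all genes) and 2 were 2-fold higher (Aurkc and Tpx2; 16.1%). In MSC-IVM-MII 6wk against GV 6wk oocytes, 2 were 2-fold lower (Aurkb and Birc5; 35.2%) and 3 were 2-fold higher (Tpx2, Aurkc and Cdca8; 21.4%). In MSC-IVM-MII 12m against GV 12m oocytes, 3 were 2-fold lower (Aurkb, Birc5 and Aurka; 41.7%) and 2 were 2-fold higher (Tacc3 and Tpx2; 16.7%). The median difference of the 10 genes was -0.67, 0.19, -0.03 and 0.40 on the log2 scale in these comparisons, in that order, against -0.52, -0.52, -0.29 and -0.60 for all genes. Each count lies within 3 genes of the number that the share over all genes gives for 10. The comparisons at one age share their GV oocytes, so their values stand side by side and are not independent of each other.

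**Figure D1:**
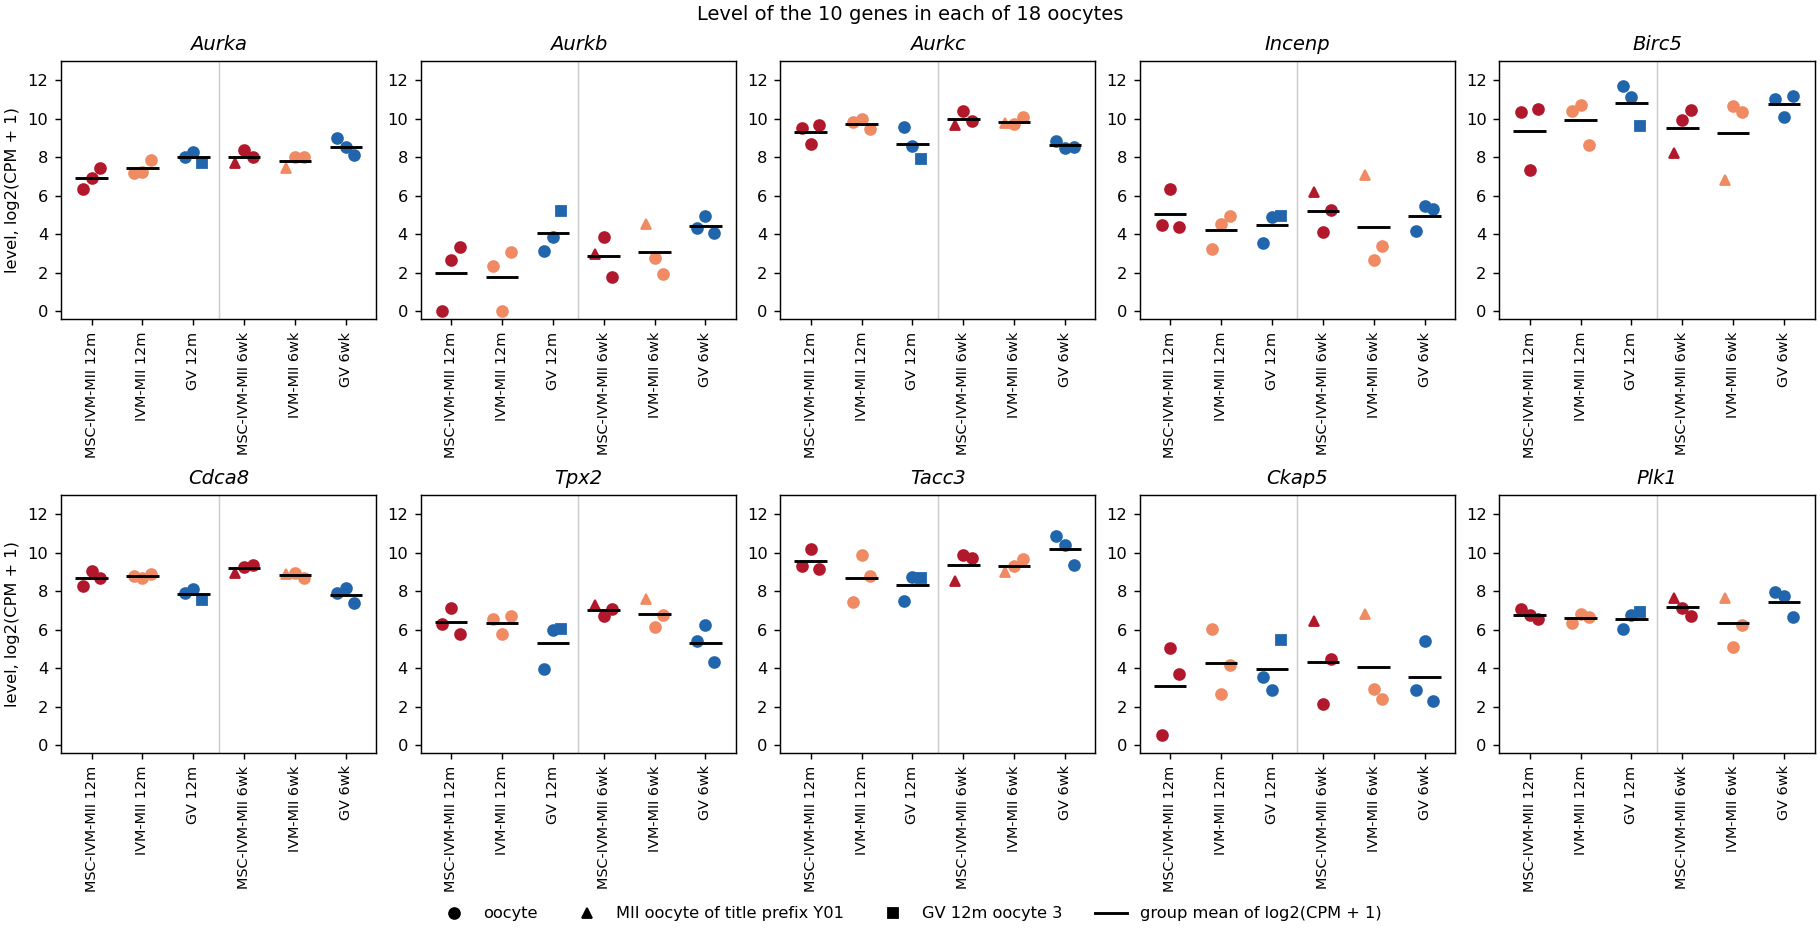
Level of each gene in every oocyte, as log2(CPM + 1), by group, with 12-month groups left and 6-week groups right; bars are group means, triangles the 2 MII oocytes of title prefix Y01 and squares GV 12m oocyte 3. Cdca8 of all 12 MII oocytes lies above that of all 6 GV oocytes, while Birc5, Incenp and Ckap5 spread widely within groups.

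Aurora C was the most abundant Aurora message per length at both stages, with a larger share in MII than in GV oocytes. Aurkc (ENSMUSG00000070837, chr7:6995300-7003091, forward strand, 7 exons) stood at 825, 1339 and 961 CPM in MSC-IVM-MII 6wk oocytes, 876, 836 and 1087 CPM in IVM-MII 6wk oocytes and 455, 361 and 374 CPM in GV 6wk oocytes. Every MII oocyte of this age was above every GV oocyte, including those of prefix Y01, with mean CPM 2.63-fold higher in MSC-IVM-MII (log2 difference 1.37) and 2.35-fold higher in IVM-MII (1.23) than in GV oocytes. Without the Y01 oocyte of each MII group these differences were 1.52 and 1.27. At 12 months Aurkc stood at 732, 411 and 835 CPM in MSC-IVM-MII oocytes, 898, 1003 and 709 CPM in IVM-MII oocytes and 763, 382 and 242 CPM in GV oocytes. Both MII groups overlapped the GV group here on CPM, through GV oocyte 1 at 763 CPM, the only oocyte of title prefix O01. That library had the lowest TMM factor of all (0.713), which raises its CPM, and GV oocyte 3 had the highest (1.43), which lowers its CPM. On TPM the IVM-MII oocytes (1010 to 1101 TPM) did not overlap the GV oocytes (450 to 634 TPM). MSC-IVM-MII oocyte 2, at 623 TPM, did. Within the prefixes O04 and O05 every MII oocyte was above the GV oocyte of its prefix, and the mean difference within prefixes was 1.10 in MSC-IVM-MII and 1.43 in IVM-MII oocytes. For O05 that GV oocyte was GV 12m oocyte 3, which had the lowest Aurkc CPM of all oocytes, so these means rest partly on it. On TPM it was not the lowest, at 503 TPM against 450 TPM in GV 12m oocyte 2 and 424 TPM in GV 6wk oocyte 3. Over all oocytes the differences were 0.61 for MSC-IVM-MII and 1.06 for IVM-MII, and 0.22 and 0.67 without GV 12m oocyte 3, the oocyte with granulosa transcripts. The IVM-MII difference was also below 1 without IVM-MII 12m oocyte 2 (0.95), and the MSC-IVM-MII difference reached 1.05 without GV 12m oocyte 1. Its expected counts were fractional in 18 of 18 libraries, so part of its reads was split with other genes. Its deposited length of 948 bases equals the coding length of its GENCODE M21 transcript, which has 1154 bases with UTRs.

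Aurora A was lower in MII than in GV oocytes on average in all 4 comparisons. Aurka (ENSMUSG00000027496, chr2:172356190-172370535, reverse strand, 9 exons) was at 82.1, 120.2 and 175 CPM in MSC-IVM-MII 12m oocytes, 145, 150.1 and 236 CPM in IVM-MII 12m oocytes and 263, 310.4 and 206 CPM in GV 12m oocytes. On CPM the MSC-IVM-MII oocytes all lay below the GV oocytes of this age (difference -1.09, mean CPM 0.484 times the GV mean), while IVM-MII oocytes overlapped them (-0.57). On TPM the MSC-IVM-MII oocytes overlapped GV oocytes too, with 112 TPM in MSC-IVM-MII oocyte 3 and 92.9 TPM in GV oocyte 1. Without MSC-IVM-MII oocyte 1 the MSC-IVM-MII difference was -0.82, without GV oocyte 2 -0.95, and on TPM -0.86, each short of 2-fold. At 6 weeks Aurka was at 206, 339 and 260.0 CPM in MSC-IVM-MII oocytes, 171, 254 and 261 CPM in IVM-MII oocytes and 510.5, 369.7 and 279 CPM in GV oocytes. On CPM IVM-MII oocytes all lay below GV oocytes (-0.73), and MSC-IVM-MII oocytes overlapped them (-0.51). Without the Y01 oocytes these were -0.54 and -0.34. On TPM the IVM-MII oocytes overlapped GV oocytes too, with 150 TPM in IVM-MII oocyte 3 and 135 TPM in GV oocyte 3.

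Aurora B was the scarcest of the family per length. Aurkb (ENSMUSG00000020897, chr11:69045647-69051664, forward strand, 9 exons) was at 0, 5.42 and 9.30 CPM in MSC-IVM-MII 12m, 4.12, 0 and 7.43 CPM in IVM-MII 12m and 7.80, 13.5 and 36.5 CPM in GV 12m oocytes. The oocytes at 0 had no count in 1914072 (MSC-IVM-MII oocyte 1) and 5404854 (IVM-MII oocyte 2), which at 3 counts allows up to 1.34 and 0.601 CPM, so the gene was not detectable there at this depth. On CPM IVM-MII oocytes lay below all GV oocytes of this age (-2.26), and MSC-IVM-MII oocytes overlapped them (-2.06). These values were -1.36 without IVM-MII oocyte 2 and -1.05 without MSC-IVM-MII oocyte 1. On TPM the IVM-MII oocytes overlapped GV oocytes too, with 6.07 TPM in IVM-MII oocyte 3 and 2.61 TPM in GV oocyte 1. At 6 weeks Aurkb was at 6.97, 13.4 and 2.42 CPM in MSC-IVM-MII, 22.1, 5.90 and 2.85 CPM in IVM-MII and 19.4, 29.9 and 15.6 CPM in GV oocytes. On CPM MSC-IVM-MII oocytes lay below all GV oocytes (-1.58, and -1.03 without MSC-IVM-MII oocyte 3). On TPM they overlapped, with 9.45 TPM in MSC-IVM-MII oocyte 2 and 7.14 TPM in GV oocyte 3. IVM-MII oocytes overlapped GV oocytes through IVM-MII oocyte 1 at 22.1 CPM (-1.36, -2.08 without that oocyte, -0.79 without oocyte 3 and -0.90 within title prefixes). The highest Aurkb level of all, 36.5 CPM, was in GV 12m oocyte 3, the library with granulosa cell, Mki67 and Top2a transcripts. Without this oocyte the Aurkb difference against GV 12m oocytes was -1.68 in IVM-MII 12m and -1.48 in MSC-IVM-MII 12m oocytes. Granulosa cell markers were also detected in the other GV 12m oocytes, so leaving this oocyte out does not remove them all. The part of these transcripts in the result was not tested.

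Ratios within an oocyte need no scaling between libraries. Of the summed TPM of the 3 Aurora genes, Aurkc made up 92.0% ± 3.25 in MSC-IVM-MII 12m oocytes, 91.3% ± 3.76 in IVM-MII 12m and 77.1% ± 8.65 in GV 12m oocytes (SD, n = 3 oocytes each). At 6 weeks its share was 89.7% ± 0.251 in MSC-IVM-MII, 90.0% ± 1.72 in IVM-MII and 69.7% ± 4.58 in GV oocytes. The single shares were 90.0, 89.7 and 89.5% in MSC-IVM-MII, 91.4, 88.1 and 90.6% in IVM-MII and 66.6, 67.6 and 74.9% in GV oocytes of 6-week-old mice. Every MII oocyte thus had a larger Aurkc share than every GV oocyte at either age, the closest being IVM-MII 12m oocyte 3 at 87.0% and GV 12m oocyte 1 at 86.9%. Aurka made up 7.71% ± 3.01 in MSC-IVM-MII 12m oocytes, 8.34% ± 3.56 in IVM-MII 12m, 20.8% ± 7.04 in GV 12m, 9.91% ± 0.427 in MSC-IVM-MII 6wk, 9.54% ± 2.0 in IVM-MII 6wk and 28.7% ± 4.39 in GV 6wk oocytes. Per length, Aurkc exceeded Aurka by a ratio of 13.6 ± 6.46 in MSC-IVM-MII 12m oocytes, 12.3 ± 4.65 in IVM-MII 12m and 4.21 ± 2.27 in GV 12m oocytes. At 6 weeks this ratio was 9.07 ± 0.409 in MSC-IVM-MII, 9.74 ± 2.19 in IVM-MII and 2.49 ± 0.581 in GV oocytes. The Aurkb share was 2.04% ± 2.27 in GV 12m oocytes and 1.61% ± 0.698 in GV 6wk oocytes and had means of 0.286% to 0.430% in the MII groups. The single GV 12m shares were 0.358, 1.14 and 4.63%, and the mean was 0.749% without oocyte 3, the one with granulosa transcripts.

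**Figure D2:**
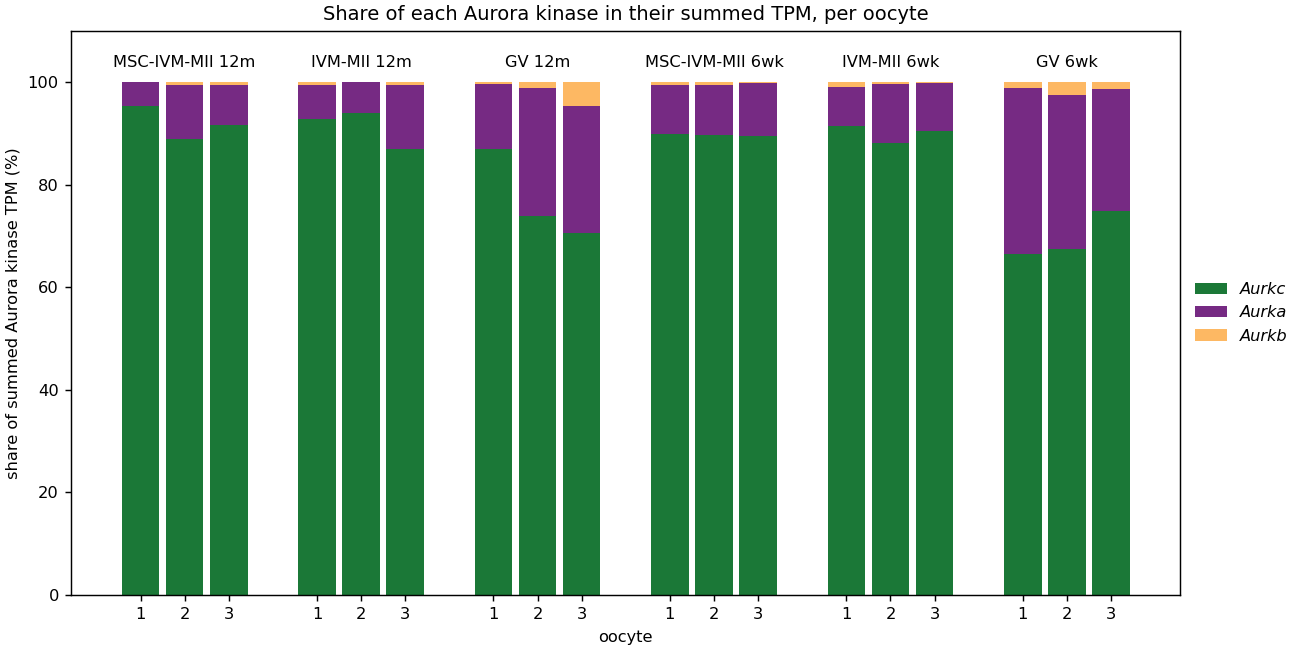
Share of Aurkc, Aurka and Aurkb in their summed TPM, as stacked bars from 0 to 100%, 1 bar for each oocyte, with 12-month groups left and 6-week groups right. The Aurkc share is 87.0% or more in every MII oocyte and 66.6% to 86.9% in GV oocytes.

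Among the passenger subunits, borealin was higher on CPM in every MII oocyte than in every GV oocyte, survivin was lower on average with a wide spread, and Incenp differed in both directions. Cdca8 (ENSMUSG00000028873, chr4:124918465-124939311, reverse strand, 10 exons) was at 307, 526 and 412 CPM in MSC-IVM-MII 12m, 433, 409 and 476 CPM in IVM-MII 12m and 242, 278 and 188 CPM in GV 12m oocytes. At 6 weeks it was at 492, 604 and 659 CPM in MSC-IVM-MII, 479, 491 and 413 CPM in IVM-MII and 235, 286 and 166 CPM in GV oocytes. No MII oocyte overlapped a GV oocyte at either age, and the lowest MII value, 307 CPM, exceeded the highest GV value, 286 CPM. On TPM the oocytes were separate within each age but not across the ages, with 216 TPM in MSC-IVM-MII 12m oocyte 1 and 251 TPM in GV 6wk oocyte 2. Against GV oocytes the differences were 0.80 in MSC-IVM-MII 12m oocytes, 0.91 in IVM-MII 12m oocytes, 1.37 in MSC-IVM-MII 6wk and 1.04 in IVM-MII 6wk oocytes, or 1.76-, 1.86-, 2.55- and 2.01-fold in mean CPM. At 12 months the IVM-MII difference reached 2-fold without GV oocyte 2 (1.04). The last was at the 2-fold limit: without GV 6wk oocyte 3 it was 0.82, without IVM-MII 6wk oocyte 2 0.99, and with DESeq2 size factors 0.98.

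Birc5 (ENSMUSG00000017716, chr11:117849251-117855743, forward strand, 4 exons) was at 1311, 160.4 and 1442 CPM in MSC-IVM-MII 12m, 1366, 1674 and 397 CPM in IVM-MII 12m and 3387, 2232 and 799 CPM in GV 12m oocytes. At 6 weeks it was at 300.9, 995 and 1386 CPM in MSC-IVM-MII, 111, 1623 and 1315 CPM in IVM-MII and 2106, 1079 and 2351 CPM in GV oocytes. Each MII group overlapped its GV group on CPM, with 1 MII oocyte far below the other 2 in every MII group. On TPM the MSC-IVM-MII 6wk oocytes all lay below the GV 6wk oocytes, narrowly, with 1841 TPM in MSC-IVM-MII oocyte 3 and 1857 TPM in GV oocyte 2. The other MII groups overlapped their GV group on TPM as well. Differences against GV were -1.44 in MSC-IVM-MII 12m oocytes, -0.91 in IVM-MII 12m oocytes, -1.23 in MSC-IVM-MII 6wk and -1.49 in IVM-MII 6wk oocytes. Their size depended on single libraries. The values were -0.41 without MSC-IVM-MII 12m oocyte 2, -0.27 without IVM-MII 12m oocyte 3, -0.57 without MSC-IVM-MII 6wk oocyte 1 and -0.26 without IVM-MII 6wk oocyte 1. Leaving out GV 12m oocyte 1 gave -0.99 for MSC-IVM-MII 12m, and leaving out GV 12m oocyte 3 gave -1.50 for IVM-MII 12m, which also passed 2-fold without IVM-MII 12m oocyte 1 (-1.16) or 2 (-1.30). The low oocytes at 6 weeks are the ones of prefix Y01. Within title prefixes the MSC-IVM-MII 12m difference was -0.75.

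Incenp (ENSMUSG00000024660, chr19:9872296-9899551, reverse strand, 18 exons) was at 21.9, 80.4 and 19.6 CPM in MSC-IVM-MII 12m, 8.36, 22.6 and 29.9 CPM in IVM-MII 12m and 10.9, 29.2 and 30.4 CPM in GV 12m oocytes. At 6 weeks it was at 73.9, 16.4 and 37.0 CPM in MSC-IVM-MII, 135, 5.28 and 9.42 CPM in IVM-MII and 16.9, 43.1 and 38.3 CPM in GV oocytes. Groups overlapped throughout, and the highest values at 6 weeks were in the 2 MII oocytes of prefix Y01. The IVM-MII 6wk difference against GV, -0.60, was -1.96 without IVM-MII oocyte 1 and 0.26 without oocyte 2, so its sign depends on single oocytes. The other differences against GV were 0.59 in MSC-IVM-MII 12m oocytes, -0.24 in IVM-MII 12m and 0.22 in MSC-IVM-MII 6wk oocytes.

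Ratios between subunits of the same oocyte were taken as well. Per length, Cdca8 stood to Birc5 at 0.118, 1.58 and 0.140 in the 3 MSC-IVM-MII 12m oocytes, 0.164, 0.123 and 0.603 in IVM-MII 12m and 0.0359, 0.0616 and 0.115 in GV 12m oocytes. At 6 weeks the ratio was 0.823, 0.308 and 0.239 in MSC-IVM-MII, 2.17, 0.164 and 0.158 in IVM-MII and 0.0571, 0.135 and 0.0355 in GV oocytes. Every MII oocyte exceeded every GV oocyte of its age. Aurkc stood to Cdca8 at mean ratios of 3.50 ± 1.66 in MSC-IVM-MII 12m oocytes, 3.94 ± 0.953 in IVM-MII 12m, 3.90 ± 2.06 in GV 12m, 3.53 ± 0.756 in MSC-IVM-MII 6wk, 4.01 ± 1.09 in IVM-MII 6wk and 3.59 ± 1.02 in GV 6wk oocytes. The ranges of this ratio overlapped in all groups.

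Tpx2, the activator of Aurora A, was higher in MII than in GV oocytes on average in all 4 comparisons. Tpx2 (ENSMUSG00000027469, chr2:152847964-152895321, forward strand, 18 exons) was at 157, 102.6 and 132 CPM in MSC-IVM-MII 6wk, 191, 69.6 and 109 CPM in IVM-MII 6wk and 42.2, 74.7 and 18.8 CPM in GV 6wk oocytes. On CPM MSC-IVM-MII oocytes all lay above GV oocytes (1.69, 2.88-fold in mean CPM), while IVM-MII oocyte 2 at 69.6 CPM overlapped GV oocyte 2 at 74.7 CPM (1.51, and 1.00 without GV oocyte 3). On TPM MSC-IVM-MII oocyte 2, at 33.2 TPM, lay below GV oocyte 2, at 39.5 TPM. Without the Y01 oocytes the differences were 1.55 in MSC-IVM-MII and 1.13 in IVM-MII oocytes. At 12 months it was at 76.3, 136 and 52.9 CPM in MSC-IVM-MII, 92.1, 52.7 and 104.5 CPM in IVM-MII and 14.5, 61.4 and 63.3 CPM in GV oocytes, and both MII groups overlapped the GV group. The differences of 1.07 in MSC-IVM-MII and 1.03 in IVM-MII came to 0.39 and 0.35 without GV oocyte 1, and to 0.36 and 0.45 within title prefixes. They were also below 1 without MSC-IVM-MII oocyte 2 (0.70), without IVM-MII oocyte 1 (0.93) and without IVM-MII oocyte 3 (0.84). The deposited length of Tpx2 ranged from 1929 to 3873 bases between oocytes, so its TPM also depends on the isoforms assigned.

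Tacc3 differed between GV oocytes of the 2 ages more than any other member did. Tacc3 (ENSMUSG00000037313, chr5:33658128-33678995, forward strand, 15 exons) was at 177, 422 and 406 CPM in GV 12m oocytes and 1870.1, 1364 and 648 CPM in GV 6wk oocytes. The groups did not overlap on CPM, and the mean was 3.86-fold lower at 12 months (difference -1.92). On TPM they overlapped, with 326 TPM in GV 12m oocyte 3 and 265 TPM in GV 6wk oocyte 3. Leaving out any 1 of the 6 oocytes gave differences of -2.35 to -1.51, and the value without GV 12m oocyte 3 was -2.11. MII oocytes held Tacc3 at 623, 1165 and 575 CPM in MSC-IVM-MII 12m, 172, 929.8 and 445 CPM in IVM-MII 12m, 363, 933 and 835 CPM in MSC-IVM-MII 6wk and 515, 622 and 820.4 CPM in IVM-MII 6wk oocytes. Against GV oocytes of the same age, Tacc3 was thus higher at 12 months, at 1.26 in MSC-IVM-MII (no overlap) and 0.41 in IVM-MII oocytes (overlap), and lower at 6 weeks, at -0.85 in MSC-IVM-MII and -0.88 in IVM-MII oocytes (both overlapping). The MSC-IVM-MII 12m difference was 0.94 without MSC-IVM-MII oocyte 2, 0.85 without GV oocyte 1 and 0.78 within shared title prefixes. The IVM-MII 12m difference was -0.17 without IVM-MII oocyte 2, 1.04 without IVM-MII oocyte 1 and 0.00 without GV oocyte 1. At 6 weeks both differences passed 2-fold without GV oocyte 3, at -1.28 in MSC-IVM-MII and -1.32 in IVM-MII oocytes, and without MSC-IVM-MII oocyte 2 (-1.10) or 3 (-1.02) and IVM-MII oocyte 3 (-1.06). Whether the differences at the 2 ages themselves differ was not tested.

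Ckap5, the microtubule polymerase that Tacc3 recruits, varied widely between the oocytes of a group. It (ENSMUSG00000040549, chr2:91526762-91620664, forward strand, 42 exons) was at 0.446, 32.1 and 11.9 CPM in MSC-IVM-MII 12m, 64.8, 5.21 and 17.2 CPM in IVM-MII 12m and 10.7, 6.29 and 42.9 CPM in GV 12m oocytes. At 6 weeks it was at 85.8, 3.34 and 21.1 CPM in MSC-IVM-MII, 113, 6.52 and 4.28 CPM in IVM-MII and 6.18, 41.4 and 3.90 CPM in GV oocytes. All groups overlapped, and the highest and lowest oocyte of a group differed from 6.82-fold in GV 12m to 71.9-fold in MSC-IVM-MII 12m oocytes. This spread was 25.7-fold in MSC-IVM-MII 6wk and 26.3-fold in IVM-MII 6wk oocytes. The lowest value, in MSC-IVM-MII 12m oocyte 1, was a single count in the shallowest library. At 6 weeks the highest MII values were again those of prefix Y01, and the highest GV 12m value was that of oocyte 3. The deposited length ran from 696 to 6619 bases, so the reads of this long gene were assigned to isoforms of different length in different oocytes. Against GV oocytes the differences were -0.87 in MSC-IVM-MII 12m oocytes, 0.33 in IVM-MII 12m oocytes, 0.83 in MSC-IVM-MII 6wk and 0.53 in IVM-MII 6wk oocytes. Single oocytes moved them across the 2-fold limit or to the other sign: -1.85 without MSC-IVM-MII 12m oocyte 2, 1.16 without IVM-MII 12m oocyte 2, 1.94 without MSC-IVM-MII 6wk oocyte 2 and -0.86 without IVM-MII 6wk oocyte 1. Within title prefixes the differences were -1.71 in MSC-IVM-MII 12m, 1.66 in MSC-IVM-MII 6wk and 1.53 in IVM-MII 6wk oocytes, and on TPM the MSC-IVM-MII 12m difference was 0.72.

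Polo kinase 1 overlapped between all groups. Plk1 (ENSMUSG00000030867, chr7:122159439-122169873, forward strand, 10 exons) was at 131, 105.4 and 92.6 CPM in MSC-IVM-MII 12m, 80.7, 112 and 97.9 CPM in IVM-MII 12m and 63.7, 106 and 119.8 CPM in GV 12m oocytes. At 6 weeks it was at 201, 139.7 and 101.9 CPM in MSC-IVM-MII, 201, 33.2 and 75.4 CPM in IVM-MII and 243, 214 and 100.0 CPM in GV oocytes. None of the 9 comparisons separated its oocytes. The difference of IVM-MII 6wk against GV 6wk, -1.11, came to -0.49 without IVM-MII oocyte 2, -0.87 without GV oocyte 1, -0.96 without GV oocyte 2 and -1.77 without IVM-MII oocyte 1, the one of prefix Y01, and to -0.58 within title prefixes. The others were -0.29 in MSC-IVM-MII 6wk, 0.04 in IVM-MII 12m and 0.22 in MSC-IVM-MII 12m oocytes.

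**Figure D3:**
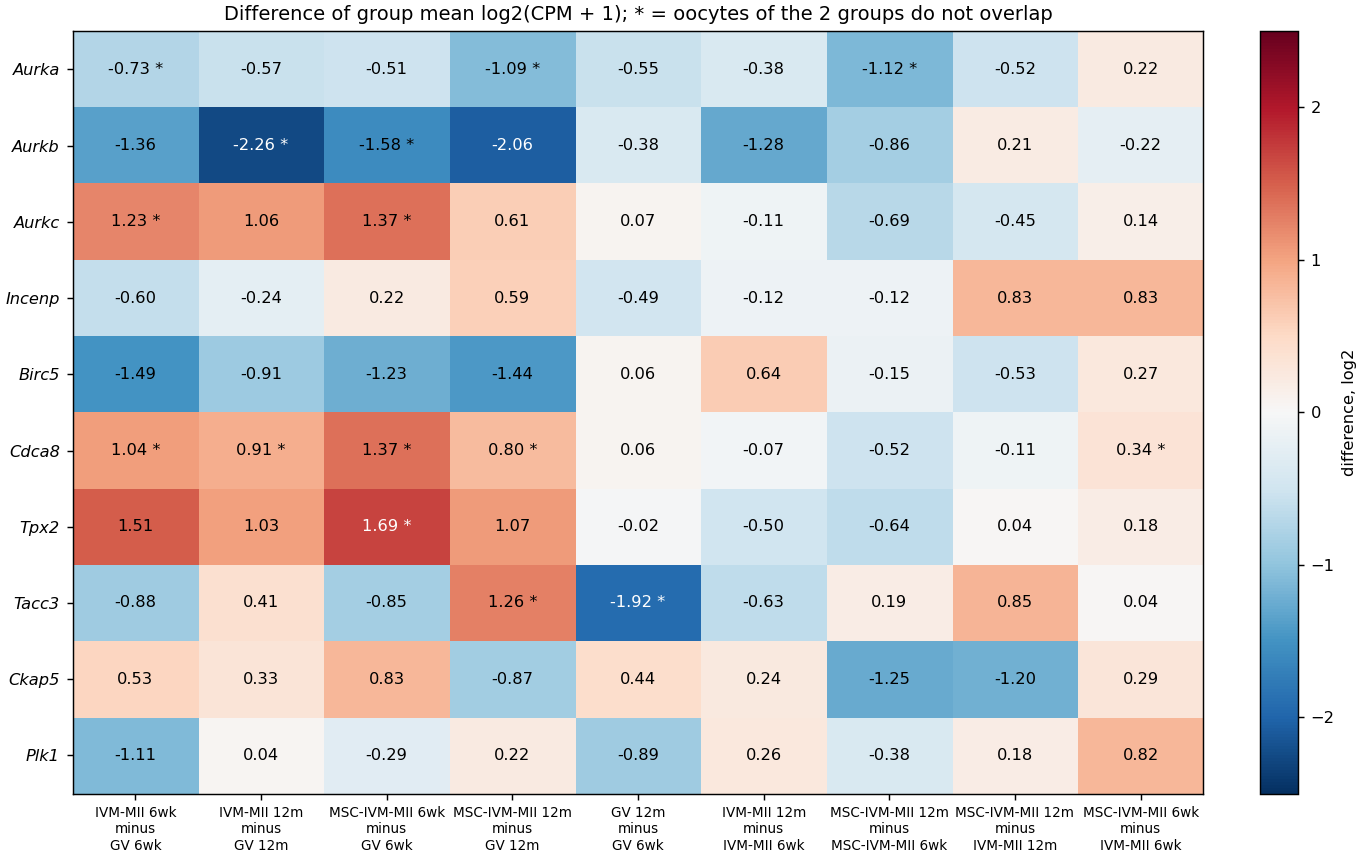
Difference of group mean log2(CPM + 1) for the 10 genes (rows) in 9 comparisons (columns, first-named group minus second), in colour and figures. A star marks groups whose oocytes do not overlap on CPM. Cdca8 is starred in all 4 comparisons of MII with GV oocytes, and Tacc3 is the only gene starred between the ages at the GV stage.

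Age was compared within each kind of oocyte. In GV 12m against GV 6wk oocytes, 1 of 10 genes was at least 2-fold lower (Tacc3), where 4.28% of all genes were, and 0 were 2-fold higher, where 9.46% were. Plk1 followed at -0.89, Aurka at -0.55 and Incenp at -0.49, all with overlapping oocytes, and Plk1 passed 2-fold without GV 6wk oocyte 3 (-1.28), without GV 12m oocyte 3 (-1.07) and on TPM (-1.03). Aurkc, Birc5, Cdca8 and Tpx2 differed by at most 0.07 between the ages in GV oocytes, but this rested on the set of oocytes: with each oocyte left out, Aurkc ranged from -0.37 to 0.45, Birc5 from -0.39 to 0.65, Cdca8 from -0.15 to 0.24 and Tpx2 from -0.53 to 0.66. On TPM Tpx2 was at -0.81. In IVM-MII 12m against IVM-MII 6wk oocytes, 1 gene was 2-fold lower (Aurkb at -1.28; 9.08% of all genes) and 0 were 2-fold higher (18.1%), and the oocytes of all 10 genes overlapped. The Aurkb value was -0.37 without IVM-MII 12m oocyte 2 and -0.56 without IVM-MII 6wk oocyte 1. Without that Y01 oocyte Incenp, at -0.12 with it, was at 1.23, and Ckap5, at 0.24 with it, was at 1.63. Ckap5 was also at 1.07 without IVM-MII 12m oocyte 2. Birc5, at 0.64, was at 1.28 without IVM-MII 12m oocyte 3, and Tacc3, at -0.63, was at -1.21 without IVM-MII 12m oocyte 2. In MSC-IVM-MII 12m against MSC-IVM-MII 6wk oocytes, 2 genes were 2-fold lower (Ckap5 and Aurka; 15.2%) and 0 were 2-fold higher (7.73%). Aurka was the gene without overlap, at -1.12 or 2.13-fold lower at 12 months, with 82.1, 120.2 and 175 CPM in MSC-IVM-MII 12m and 206, 339 and 260.0 CPM in MSC-IVM-MII 6wk oocytes. It was -0.85 without MSC-IVM-MII 12m oocyte 1 and -0.94 without MSC-IVM-MII 6wk oocyte 2. Ckap5 was at -1.25, but at 0.03 without MSC-IVM-MII 12m oocyte 1, the library with the fewest counts, and at -0.20 without MSC-IVM-MII 6wk oocyte 1. Aurkb, at -0.86, was at -1.53 without MSC-IVM-MII 12m oocyte 3. The median difference of the 10 genes was -0.58 in MSC-IVM-MII, -0.11 in IVM-MII and -0.20 in GV oocytes, against -0.12, 0.16 and 0.12 for all genes.

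Between MII oocytes matured with and without MSC, only Cdca8 at 6 weeks had oocytes that did not overlap on CPM. On TPM these overlapped, with 406 TPM in MSC-IVM-MII 6wk oocyte 2 and 440 TPM in IVM-MII 6wk oocyte 1. At 12 months, 1 of 10 genes was at least 2-fold lower in MSC-IVM-MII than in IVM-MII oocytes (Ckap5 at -1.20), where 15.2% of all genes were, and 0 were 2-fold higher, where 10.3% were. Without MSC-IVM-MII oocyte 1 the Ckap5 value was 0.08, and without IVM-MII oocyte 1 it was -0.32. Oocytes of all 10 genes overlapped, and the next largest differences were Tacc3 at 0.85 and Incenp at 0.83. Tacc3 was at 1.43 without IVM-MII oocyte 2, and Incenp at 1.18 without IVM-MII oocyte 3. Aurkb, at 0.21, was at 1.21 without MSC-IVM-MII oocyte 1, where it had no count, and Birc5, at -0.53, was at -1.17 without IVM-MII oocyte 3. At 6 weeks, 0 genes were 2-fold lower in MSC-IVM-MII than in IVM-MII oocytes (5.22% of all genes) and 0 were 2-fold higher (16.2%). Cdca8 was at 492, 604 and 659 CPM in MSC-IVM-MII and 479, 491 and 413 CPM in IVM-MII oocytes, a difference of 0.34 or 1.27-fold in mean CPM, with 491.6 CPM in the lowest MSC-IVM-MII oocyte against 490.7 CPM in the highest IVM-MII oocyte. Incenp was at 0.83 and Plk1 at 0.82. Each of these groups holds 1 oocyte of prefix Y01: with both left out, Incenp was at 1.67, Plk1 at 1.23, Cdca8 at 0.48 and the median of the 10 genes at 0.43, against 0.24 with them and 0.20 for all genes. At 12 months that median was -0.04, against -0.10 for all genes.

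**Figure D4:**
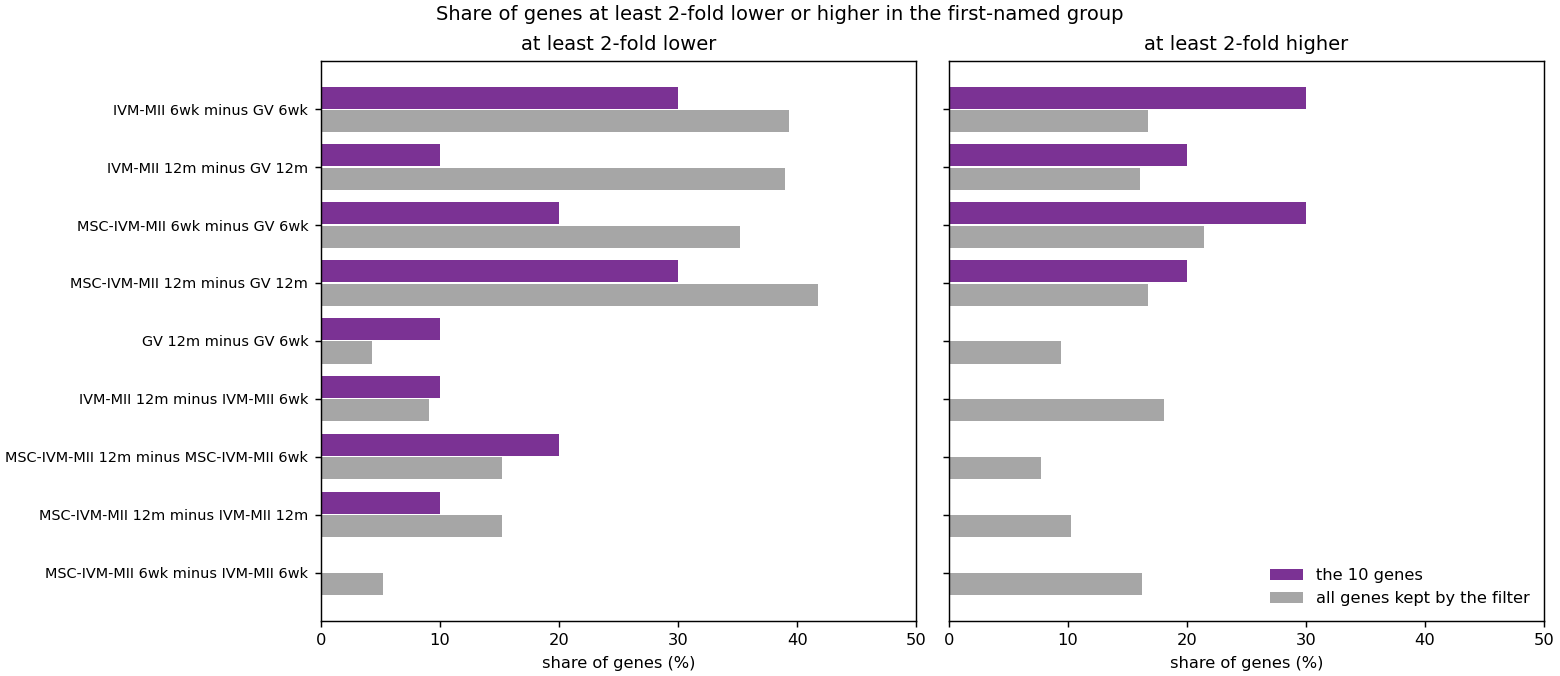
Share of genes at least 2-fold lower (left) or higher (right) in the first-named group of each comparison, in percent, for the 10 genes (purple) and for all 12037 genes kept by the filter (grey). Against GV oocytes, 3 or fewer of the 10 genes are lower where 35.2% to 41.7% of all genes are.

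Per length, the members spanned a wide range of abundance. Birc5 averaged 2360.3 ± 621 TPM in GV 12m and 2425 ± 494 TPM in GV 6wk oocytes (SD, n = 3), rank 48 and 49 by mean TPM among the genes listed. Aurkc ranked 154 in MSC-IVM-MII 12m oocytes, 149 in IVM-MII 12m, 374 in GV 12m, 90 in MSC-IVM-MII 6wk, 107 in IVM-MII 6wk and 349 in GV 6wk oocytes. Tacc3 averaged 426 ± 164 TPM in MSC-IVM-MII 12m, 185 ± 137 TPM in GV 12m and 685 ± 365 TPM in GV 6wk oocytes. Cdca8 averaged 441 ± 34.3 TPM in MSC-IVM-MII 6wk and 168 ± 78.9 TPM in GV 6wk oocytes. At the other end, Aurkb averaged 2.96 ± 2.86 TPM in MSC-IVM-MII 12m and 14.2 ± 16.4 TPM in GV 12m oocytes, and Incenp 5.99 ± 3.78 TPM in IVM-MII 12m and 7.93 ± 5.97 TPM in GV 12m oocytes. The summed Aurkb counts behind these levels were 86 in MSC-IVM-MII 12m (exact Poisson 95% interval 68.8 to 106, counting error only) and 383 in GV 12m oocytes (346 to 423). These sums are not scaled for depth, and 241 of the 383 counts came from GV 12m oocyte 3, the library with granulosa transcripts. Ordered by mean log2 level over the 6 groups, neighbouring groups overlapped for every gene except Cdca8, where MSC-IVM-MII 6wk stood above IVM-MII 6wk and MSC-IVM-MII 12m above GV 12m.

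Aurkb was the only member whose group means spanned 2 or more on the log2 scale (2.64). Over the 6 group means, the genes with the most similar centred profile among 10538 candidates were Dapp1, an adaptor of phosphoinositide signalling in B cells, with a root mean square difference of 0.17, and Med4, a Mediator subunit, with 0.18. Mean Med4 was 78.4 CPM in MSC-IVM-MII 12m, 90.0 CPM in IVM-MII 12m and 414 CPM in GV 12m oocytes. The profiles share their libraries and scaling, and the likeness is a description over 6 points.

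Partners of the kinases were counted beside the shares over all genes. Genes named from this list and the lists below were picked among those whose oocytes do not overlap, so the lack of overlap is no result. Of 13 activators and partners, 9 passed the filter: against GV 6wk oocytes 8 were 2-fold higher in MSC-IVM-MII 6wk oocytes and 6 in IVM-MII 6wk oocytes, with 0 lower in either, and against GV 12m oocytes 4 were higher and 0 lower in IVM-MII 12m and 3 higher and 1 lower in MSC-IVM-MII 12m oocytes. Their medians were 1.67, 1.47, 0.70 and 0.83 in this order, beside all-gene medians of -0.29, -0.52, -0.52 and -0.60. Of all genes 21.4%, 16.7%, 16.1% and 16.7% were higher and 35.2%, 39.3%, 39% and 41.7% lower in these comparisons. Haspin, the histone H3 kinase that marks the docking site of the passenger complex, was at 167, 119.9 and 103.6 CPM in IVM-MII 6wk and 36.6, 47.2 and 28.0 CPM in GV 6wk oocytes, a difference of 1.78 without overlap. At 12 months Haspin was at 85.4, 133 and 96.8 CPM in IVM-MII and 29.8, 73.0 and 41.4 CPM in GV oocytes (1.18). Plk4, the Polo family kinase of centriole duplication, was at 169.6, 330.2 and 136 CPM in MSC-IVM-MII 12m and 50.1, 81.6 and 57.4 CPM in GV 12m oocytes (1.66), and at 219, 232 and 384 CPM in MSC-IVM-MII 6wk and 66.1, 76.6 and 39.0 CPM in GV 6wk oocytes (2.19). Sgo1, a shugoshin, was at 70.5, 72.9 and 35.4 CPM in MSC-IVM-MII 12m and 6.91, 22.1 and 18.5 CPM in GV 12m oocytes (1.92).

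Between the ages and between the MII cultures 0 to 2 of the 9 partners differed 2-fold in a direction. In this list 2 of 9 genes were 2-fold higher and 0 lower in GV 12m than in GV 6wk oocytes (9.46% and 4.28% of all genes), 1 was higher and 0 lower in IVM-MII 12m than in IVM-MII 6wk oocytes (18.1% and 9.08%), and 0 were higher and 2 lower in MSC-IVM-MII 12m than in MSC-IVM-MII 6wk oocytes (7.73% and 15.2%). With MSC, 0 were higher and 1 lower at 12 months (10.3% and 15.2%), and 0 either way at 6 weeks (16.2% and 5.22%). Nedd9, a scaffold that activates Aurora A in somatic cells, was at 0, 0.139 and 0.594 CPM in MSC-IVM-MII 12m oocytes, against 2.18, 15.6 and 2.12 CPM in IVM-MII 12m and 9.30, 7.35 and 2.76 CPM in MSC-IVM-MII 6wk oocytes, so it did not exceed 15.6 CPM in these groups.

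Genes of the acentriolar poles held 2-fold differences in both directions, as all genes did. Of 20 genes of microtubule-organizing centres and the gamma-tubulin ring, 18 passed the filter: 4 were lower and 6 higher in IVM-MII 6wk, 2 lower and 5 higher in MSC-IVM-MII 6wk, 7 lower and 4 higher in IVM-MII 12m, and 8 lower and 4 higher in MSC-IVM-MII 12m oocytes, each against GV oocytes of its age. Their medians were -0.14, 0.39, -0.64 and -0.49 in this order. Of all genes 39.3%, 35.2%, 39% and 41.7% were lower and 16.7%, 21.4%, 16.1% and 16.7% higher in these comparisons, so the 12-month counts of lower genes are near the general share. The gamma-tubulin ring partners Mzt2 and Mzt1 stood on opposite sides: Mzt2 was at 3.17, 0 and 1.38 CPM in MSC-IVM-MII 6wk and 49.2, 43.3 and 69.5 CPM in GV 6wk oocytes (-4.65), and Mzt1 at 53.0, 39.8 and 76.3 CPM in MSC-IVM-MII 6wk and 11.8, 24.1 and 7.45 CPM in GV 6wk oocytes (1.99). Mzt1 was also at 188, 194 and 125 CPM in MSC-IVM-MII 12m oocytes against 53.0, 39.8 and 76.3 CPM in MSC-IVM-MII 6wk oocytes (1.59). Pericentrin (Pcnt), the scaffold of the poles, was at 74.1, 659 and 92.5 CPM in MSC-IVM-MII 12m and 32.7, 21.9 and 64.7 CPM in GV 12m oocytes (2.17).

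Augmin is the complex that branches microtubules from existing ones. Of its 8 subunits, 5 were 2-fold lower in IVM-MII 6wk (0 higher), 5 in MSC-IVM-MII 6wk (1 higher), 5 in IVM-MII 12m (3 higher) and 4 in MSC-IVM-MII 12m oocytes (0 higher), each against GV oocytes of its age. Their medians were -1.73, -2.10, -1.59 and -1.39 in this order. With 35.2% to 41.7% of all genes lower in these comparisons, about 3 of 8 would be lower at the general share. Haus8 was at 25.9, 25.8 and 25.1 CPM in IVM-MII 6wk and 315, 315 and 242 CPM in GV 6wk oocytes (-3.44). Haus7 was at 3.57, 3.19 and 28.7 CPM in MSC-IVM-MII 12m and 149, 74.9 and 61.2 CPM in GV 12m oocytes (-3.43). Haus5 went the other way in IVM-MII 12m oocytes, at 37.2, 37.1 and 59.2 CPM against 18.9, 16.8 and 8.94 CPM in GV 12m oocytes (1.54).

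The Ran pathway, which frees spindle factors such as Tpx2 from importins near chromosomes, was counted in the same way. Of 23 Ran-regulated and other assembly factors, 6 were lower and 6 higher in IVM-MII 6wk, 5 lower and 6 higher in MSC-IVM-MII 6wk, 8 lower and 6 higher in IVM-MII 12m, and 8 lower and 5 higher in MSC-IVM-MII 12m oocytes, each against GV oocytes of its age. Their medians were -0.17, 0.69, 0.12 and -0.26 in this order. Over all genes 35.2% to 41.7% were lower and 16.1% to 21.4% higher in these comparisons. Kpna2, an importin alpha that binds Tpx2, was at 161, 108 and 127 CPM in MSC-IVM-MII 6wk and 1861, 1617 and 767 CPM in GV 6wk oocytes (-3.33). It was at 36.6, 57.3 and 157 CPM in MSC-IVM-MII 12m and 236, 694 and 637 CPM in GV 12m oocytes (-2.75), and GV 12m oocytes were below GV 6wk oocytes (-1.49, no overlap). Ranbp1, a Ran regulator, was at 27.3, 8.62 and 28.7 CPM in IVM-MII 12m and 71.7, 145 and 167 CPM in GV 12m oocytes (-2.60). Mapre1 (EB1, a plus-end protein) was at 329.6, 254 and 305.3 CPM in IVM-MII 12m and 70.4, 115 and 148 CPM in GV 12m oocytes (1.46). Prc1, a crosslinker of antiparallel microtubules, was at 183, 142 and 146 CPM in MSC-IVM-MII 6wk and 28.8, 84.4 and 30.5 CPM in GV 6wk oocytes (1.87). That no oocyte of these genes crossed between the 2 groups compared was the condition for naming them and is no result. Rcc1, the exchange factor that loads Ran with GTP, was at 43.3, 70.7 and 59.6 CPM in MSC-IVM-MII 12m and 5.12, 4.40 and 17.4 CPM in GV 12m oocytes (2.77).

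Phosphatase genes that oppose these kinases were counted last. Of 16, 14 passed the filter: 3 were lower and 3 higher in IVM-MII 6wk, 1 lower and 1 higher in MSC-IVM-MII 6wk, 4 lower and 1 higher in IVM-MII 12m, and 4 lower and 0 higher in MSC-IVM-MII 12m oocytes, each against GV oocytes of its age. Their medians were -0.09, 0.23, 0.00 and -0.71 in this order, where 35.2% to 41.7% of all genes were lower and 16.1% to 21.4% higher. Ppp2r5d, a B56 subunit of protein phosphatase 2A, was at 17.4, 9.86 and 9.90 CPM in MSC-IVM-MII 12m, 0.606, 0.601 and 16.3 CPM in IVM-MII 12m and 25.8, 30.7 and 29.2 CPM in GV 12m oocytes. It was lower than in GV oocytes without overlap in both MII groups (-1.19 and -3.06). Ppp6c, the catalytic subunit of the phosphatase that acts on Aurora A, was at 35.0, 31.3 and 25.3 CPM in IVM-MII 12m and 5.18, 14.3 and 15.4 CPM in IVM-MII 6wk oocytes (1.43). Between the ages, 4 of the 14 were higher and 0 lower in GV 12m than in GV 6wk (9.46% and 4.28% of all genes), 3 higher and 5 lower in IVM-MII 12m than in IVM-MII 6wk (18.1% and 9.08%), and 2 higher and 3 lower in MSC-IVM-MII 12m than in MSC-IVM-MII 6wk oocytes (7.73% and 15.2%). With MSC, 1 was higher and 2 lower at 12 months (10.3% and 15.2%), and 2 higher and 1 lower at 6 weeks (16.2% and 5.22%).

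The other lists are given for the ages and cultures beside the same shares over all genes. In GV 12m against GV 6wk oocytes, 6 of 18 pole genes were 2-fold higher and 0 lower, 0 of 8 augmin subunits higher and 1 lower, and 5 of 23 Ran-regulated genes higher and 2 lower, where 9.46% of all genes were higher and 4.28% lower. In IVM-MII 12m against IVM-MII 6wk oocytes these were 2 higher and 3 lower, 2 higher and 1 lower, and 4 higher and 3 lower, where 18.1% of all genes were higher and 9.08% lower. In MSC-IVM-MII 12m against MSC-IVM-MII 6wk oocytes they were 1 higher and 4 lower, 0 higher and 1 lower, and 0 higher and 2 lower, where 7.73% of all genes were higher and 15.2% lower. With MSC at 12 months they were 0 higher and 3 lower, 1 higher and 3 lower, and 4 higher and 3 lower, where 10.3% of all genes were higher and 15.2% lower. With MSC at 6 weeks they were 3 higher and 1 lower, 3 higher and 1 lower, and 4 higher and 0 lower, where 16.2% of all genes were higher and 5.22% lower. None of these counts was tested.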

How the data were processed

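Libraries were made by the submitters from 18 single mouse oocytes by SMART-seq2. Per the submitters' processing notes, the build was mm10 (GRCm38.p5) and the tools named, without roles, were TopHat2 2.1.1, Cufflinks, Trim Galore 0.4.5 and FastQC 0.11.8. Which tool and annotation made the tables is not given in the sources used here. The deposited files, 1 per oocyte, give expected counts, in which reads that map to several genes can be split, per Ensembl gene, with gene length, TPM and FPKM. The authors' TPM values are per effective length and sum to a common total in every oocyte; the deposited FPKM were not used. Ensembl identifiers were paired with symbols for 46488 of 47069 genes.

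Expected counts were rounded and kept for 12037 genes by edgeR's filterByExpr. Libraries were scaled by TMM (edgeR 4.0.16, R 4.3.3), and CPM were log2-transformed with a pseudocount of 1. Differences are of group means, and a call is a 2-fold difference. The same steps were tested on simulated data. No model was fitted across genes, because no label ties an oocyte to an animal or culture. Intervals and floors (3 counts) cover counting error only. Without molecular identifiers, PCR copies of 1 molecule are counted separately. No 2 libraries held the same counts.

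All 10 genes are named. Genes of like profile are the 2 nearest in root mean square difference for a member whose group means span 2 or more (log2). From 5 related lists of 80 genes, at most 2 per list, direction and comparison are named, those with the highest mean CPM in the higher group among genes whose oocytes do not overlap. The members and lists were chosen with earlier results of these data known. Motif searches and the joint removal of the Y01 oocytes were chosen after seeing the data. Alternatives were DESeq2 1.42.0 size factors, library totals, TPM, pseudocounts of 0.25 and 5, no filter, each oocyte left out, and differences within shared title prefixes. Python 3.11.15, pandas 2.3.3 and Matplotlib 3.10.9 made the tables and figures.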

Additional observations from a re-analysis of the deposited data

How the results depend on the processing

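Groups of 3 single oocytes of unknown animals limit every value. Title prefixes shared within an age gave blocked differences, printed with the genes they move across the 2-fold limit. Of the single-gene differences under other scalings, pseudocounts, filters and prefixes, 594 moved by less than the spread between oocytes and 6 by more. That spread is the pooled SD of log2 levels in the 2 groups. It is wide for some genes (SD 2.32 for Ckap5 in MSC-IVM-MII 12m oocytes), so the 594 can include changes of sign and do not show that values are stable. With the TPM the median of all genes moved by up to 0.29 (MSC-IVM-MII 12m against GV 12m), so TPM differences are read relative to that shift. Against GV 6wk, within title prefixes 1 gene was lower in IVM-MII 6wk oocytes. Against GV 12m, IVM-MII 12m oocytes had 2 lower and 0 higher genes with DESeq2 size factors, and 1 higher with a pseudocount of 5 or within prefixes (there Aurkc); MSC-IVM-MII 12m oocytes had 1 higher under each of these 3 (within prefixes Aurkc, in place of Tacc3 and Tpx2), and a median of 0.71 on TPM and 0.00 within prefixes. Between the ages, 2 genes were lower in GV 12m oocytes on TPM; in IVM-MII 12m oocytes the median was -0.40 on TPM and 0 genes were lower with a pseudocount of 5; in MSC-IVM-MII 12m oocytes 1 was lower with library totals or a pseudocount of 5. With MSC at 12 months, 0 were lower on TPM or with a pseudocount of 5, and 1 was higher with library totals or on TPM. With MSC at 6 weeks and both Y01 oocytes left out, the median was 0.43 and 2 genes were higher. The causes were not tested. Of summed Aurora CPM in place of TPM, Aurkc held 82.8% (MSC-IVM-MII 12m), 82.4% (IVM-MII 12m), 59.3% (GV 12m), 79.1% (MSC-IVM-MII 6wk), 79.5% (IVM-MII 6wk) and 49.9% (GV 6wk); Aurka held 16.6%, 17.2%, 37.3%, 20.4%, 19.5% and 47.4% in that order; Aurkb held 0.641% (MSC-IVM-MII 12m), 0.553% (MSC-IVM-MII 6wk), 0.939% (IVM-MII 6wk) and 2.74% (GV 6wk).

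With each oocyte left out in turn, the median ranged from -0.69 to -0.12 (IVM-MII 6wk against GV), -0.12 to 0.41 (IVM-MII 12m against GV), -0.31 to 0.24 (MSC-IVM-MII 6wk against GV), 0.04 to 0.46 (MSC-IVM-MII 12m against GV), -0.43 to -0.15 (GV between ages), -0.36 to -0.10 (IVM-MII between ages), -0.73 to -0.42 (MSC-IVM-MII between ages), and with MSC from -0.30 to 0.08 at 12 months and 0.04 to 0.43 at 6 weeks. Counts of higher genes ranged from 1 to 4 (IVM-MII 6wk against GV), 1 to 3 (IVM-MII 12m against GV), 0 to 2 (MSC-IVM-MII 12m against GV), 0 to 1 (GV between ages), 0 to 2 (IVM-MII between ages), and with MSC 0 to 2 at 12 months and 0 to 3 at 6 weeks. Counts of lower genes ranged from 1 to 2 (IVM-MII 12m against GV), 1 to 3 (MSC-IVM-MII 6wk against GV), 1 to 2 (GV between ages), 0 to 1 (IVM-MII between ages), 0 to 4 (MSC-IVM-MII between ages) and 0 to 2 (with MSC at 12 months). Ckap5 changed sign without MSC-IVM-MII 12m oocyte 1: its difference ranged from -2.36 to 0.03 between ages in MSC-IVM-MII oocytes and from -2.18 to 0.08 with MSC at 12 months.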

Other observations

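Among the 12 MII oocytes, those with the lowest Birc5 levels held the highest Incenp levels, a pattern chosen after its values were seen. Birc5 was at 111 CPM in IVM-MII 6wk oocyte 1, 160.4 CPM in MSC-IVM-MII 12m oocyte 2 and 300.9 CPM in MSC-IVM-MII 6wk oocyte 1. Incenp was at 135, 80.4 and 73.9 CPM in these oocytes, against at most 37.0 CPM in the other 9 MII oocytes. Cdca8 in the same oocytes was at 479, 526 and 492 CPM, inside the range of the other MII oocytes. IVM-MII 6wk oocyte 1 and MSC-IVM-MII 6wk oocyte 1 are the oocytes of prefix Y01, with Mos and Gdf9 inside the range of GV oocytes. They also held the highest Ckap5 levels of the 12 MII oocytes, at 113 and 85.8 CPM. The pattern thus rests largely on these libraries.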
